A study of Homo sapiens with 24 samples.

Results

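The transcripts described here encode 50 proteins of the mitochondrial ribosome, out of 12165 genes measured with a single symbol. They were chosen by name alone: every gene whose symbol is MRPL or MRPS followed by a number. RefSeq lists 77 protein-coding genes of such symbols, and the others, MRPL45 among them, were not analysed here. The mitochondrial ribosome is the machine inside mitochondria that translates the few messenger RNAs encoded by mitochondrial DNA, all of which specify subunits of the respiratory chain or of ATP synthase. Its RNAs are made inside the organelle, whereas all of its proteins are encoded in the nucleus, translated in the cytosol and imported. The small subunit reads the messenger RNA and the large subunit joins the amino acids. Acute myeloid leukemia (AML) cells are known for their sensitivity to inhibitors of mitochondrial translation such as tigecycline.

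RNA came from 4 established human AML cell lines on 24 one-colour Affymetrix arrays, with 3 arrays in each of 8 groups. MOLM-14, a line with monocytic features, has the MLL-AF9 fusion and a FLT3 internal tandem duplication. U937 is monocytic, HL-60 promyelocytic, and KG-1 resembles an early myeloblast. Each line stood for 24 h in liquid culture with 4 µM R406 (MOLM-14 R406, U937 R406, HL-60 R406, KG-1 R406) or with the solvent alone (MOLM-14 DMSO, U937 DMSO, HL-60 DMSO, KG-1 DMSO). The labels give the dose in µM in one place and in mM in another, and µM is used here. R406, the active form of fostamatinib, blocks SYK, a tyrosine kinase, and several further kinases, so a response to it is not a response to SYK inhibition alone. Whether separate cultures stand behind the triplicates is not stated, and the p-values therefore reflect only array-to-array spread, which may be technical. Levels below are the deposited intensities, and a log2 fold change is R406 minus DMSO in the mean of log2(intensity + 1). A transcript was called higher or lower where limma's Benjamini-Hochberg adjusted p over all 12165 genes was under 0.05.

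Intensities on the arrays ran between 3.41 and 12686, and array medians between 19.1 and 21.4. CD34, the marker set for KG-1, lay at 893.4 to 1095 in KG-1 R406 and 549.3 to 731.8 in KG-1 DMSO, against at most 21.56 in the other lines. The summed level of FLT3 and MEIS1 was highest in MOLM-14, at 2793 to 2953 in R406 and 1192 to 1239 in DMSO. FLT3 gave the sum this order, with a mean of 914.2 in MOLM-14 DMSO against at most 113.8 in the other DMSO groups. MEIS1 ranked otherwise: KG-1 DMSO had the highest mean (591.3), then U937 DMSO (483.4), MOLM-14 DMSO (295.4) and HL-60 DMSO (7.994). Among the R406 groups its mean was again highest for KG-1 (933.2), against 605.2 for MOLM-14. The summed level of MPO, ELANE and AZU1 was highest in HL-60, at 5515 to 5997 in R406 and 8946 to 9603 in DMSO. MPO carried that rank, with a mean of 6416 in HL-60 DMSO against at most 44 in the other DMSO groups. ELANE and AZU1 were higher in MOLM-14 DMSO (3034 and 791.9) and U937 DMSO (2944 and 185.9) than in HL-60 DMSO (2642 and 160.1). ITGAM and CD14, listed as monocytic markers, were low in the lines with monocytic features: they summed to 91.91 to 113.1 in MOLM-14 R406 and 68.52 to 80.81 in MOLM-14 DMSO, and to 129.3 to 155.7 in U937 R406 and 82.93 to 92.83 in U937 DMSO. The sum was 1102 to 1182 in HL-60 R406 against 417.3 to 533.2 in HL-60 DMSO, and 142.6 to 148 in KG-1 R406 against 477.8 to 515.6 in KG-1 DMSO. SPI1 stayed between a mean of 15.09 and one of 36.43 in the 8 groups. PTPRC, the other marker measured for all lines, had a higher mean in R406 than in DMSO in each line. Its means were 1645 against 639.5 in MOLM-14, 580 against 444 in U937, 891.8 against 622.3 in HL-60 and 1553 against 1033 in KG-1. CD33 and LYZ were not analysed here. The 4 T and NK cell markers, of which CD3E was near the lowest intensities, summed to 299 to 333 in MOLM-14 R406 against 167.7 to 191.1 in MOLM-14 DMSO. Their sum was 511.8 to 647.3 in KG-1 R406 against 307.4 to 313.3 in KG-1 DMSO. It was highest in U937, at 952.5 to 1009 in R406 and 824.4 to 852.4 in DMSO. In HL-60 it was lower with R406, at 142.1 to 155.8 against 167.8 to 176.9 in DMSO. NKG7 carried most of that sum. KRT18, an epithelial marker, had means of 175.5 in MOLM-14 DMSO and 131.1 in MOLM-14 R406, against at most 10.8 in the other lines. The part of these shifts in the results below was not tested. KG-1 R406 replicate 2 had the lowest array weight of all 24, at 0.22. KG-1 results are therefore also given without it where a call was lost or a named value moved by over 1.5 times. The 3 MOLM-14 R406 arrays had the next lowest weights, at 0.677, 0.358 and 0.603.

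After R406 most mitochondrial ribosomal protein transcripts were lower in MOLM-14 and KG-1, and a smaller number were lower, by less, in U937 and HL-60. In MOLM-14, 41 of 50 were called lower, where 25.0% of all genes were, and 3 were called higher, where 31.1% of all genes were. The median log2 fold change of the 50 was -0.69, beside 0.07 over all genes. In KG-1, 42 were called lower and 0 higher, where 20.9% and 23.5% of all genes were, and the median was -0.74 beside 0.02. HL-60 had 18 called lower and 0 higher, where 7.98% and 7.20% of all genes were, with a median of -0.18 beside 0.00. U937 had 15 called lower and 0 higher, where 5.43% and 6.10% of all genes were, with a median of -0.14 beside 0.00. The U937 and HL-60 counts rested partly on single arrays: 9 members were called lower in U937 without U937 DMSO replicate 1, and 12 in HL-60 without HL-60 R406 replicate 2. In cells measured in bulk, fewer cells of a kind and less of a transcript per cell cannot be told apart.

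A fall of 2-fold or more that was also called occurred in 16 members in MOLM-14, where 9.06% of all genes fell so far, and in 16 in KG-1, where 4.39% did. No member fell 2-fold in U937 or HL-60, where 0.0575% and 0.288% of all genes did. On the arrays themselves, all 3 R406 values lay below all 3 DMSO values for 41 members in MOLM-14, 32 in U937, 32 in HL-60 and 43 in KG-1, against 26.1%, 15.9%, 16.9% and 23.2% of all genes. They lay above for 3 members in MOLM-14, 7 in U937, 0 in HL-60 and 0 in KG-1, against 31.6%, 18.2%, 15.9% and 26.5% of all genes. Array by array, the median of the 50 transcripts against the DMSO mean was -0.65, -0.70 and -0.69 in MOLM-14 R406, and -0.63, -0.91 and -0.65 in KG-1 R406, where the lowest value belongs to replicate 2. It was -0.16, -0.12 and -0.13 in U937 R406, and -0.19, -0.18 and -0.20 in HL-60 R406.

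**Figure D1:**
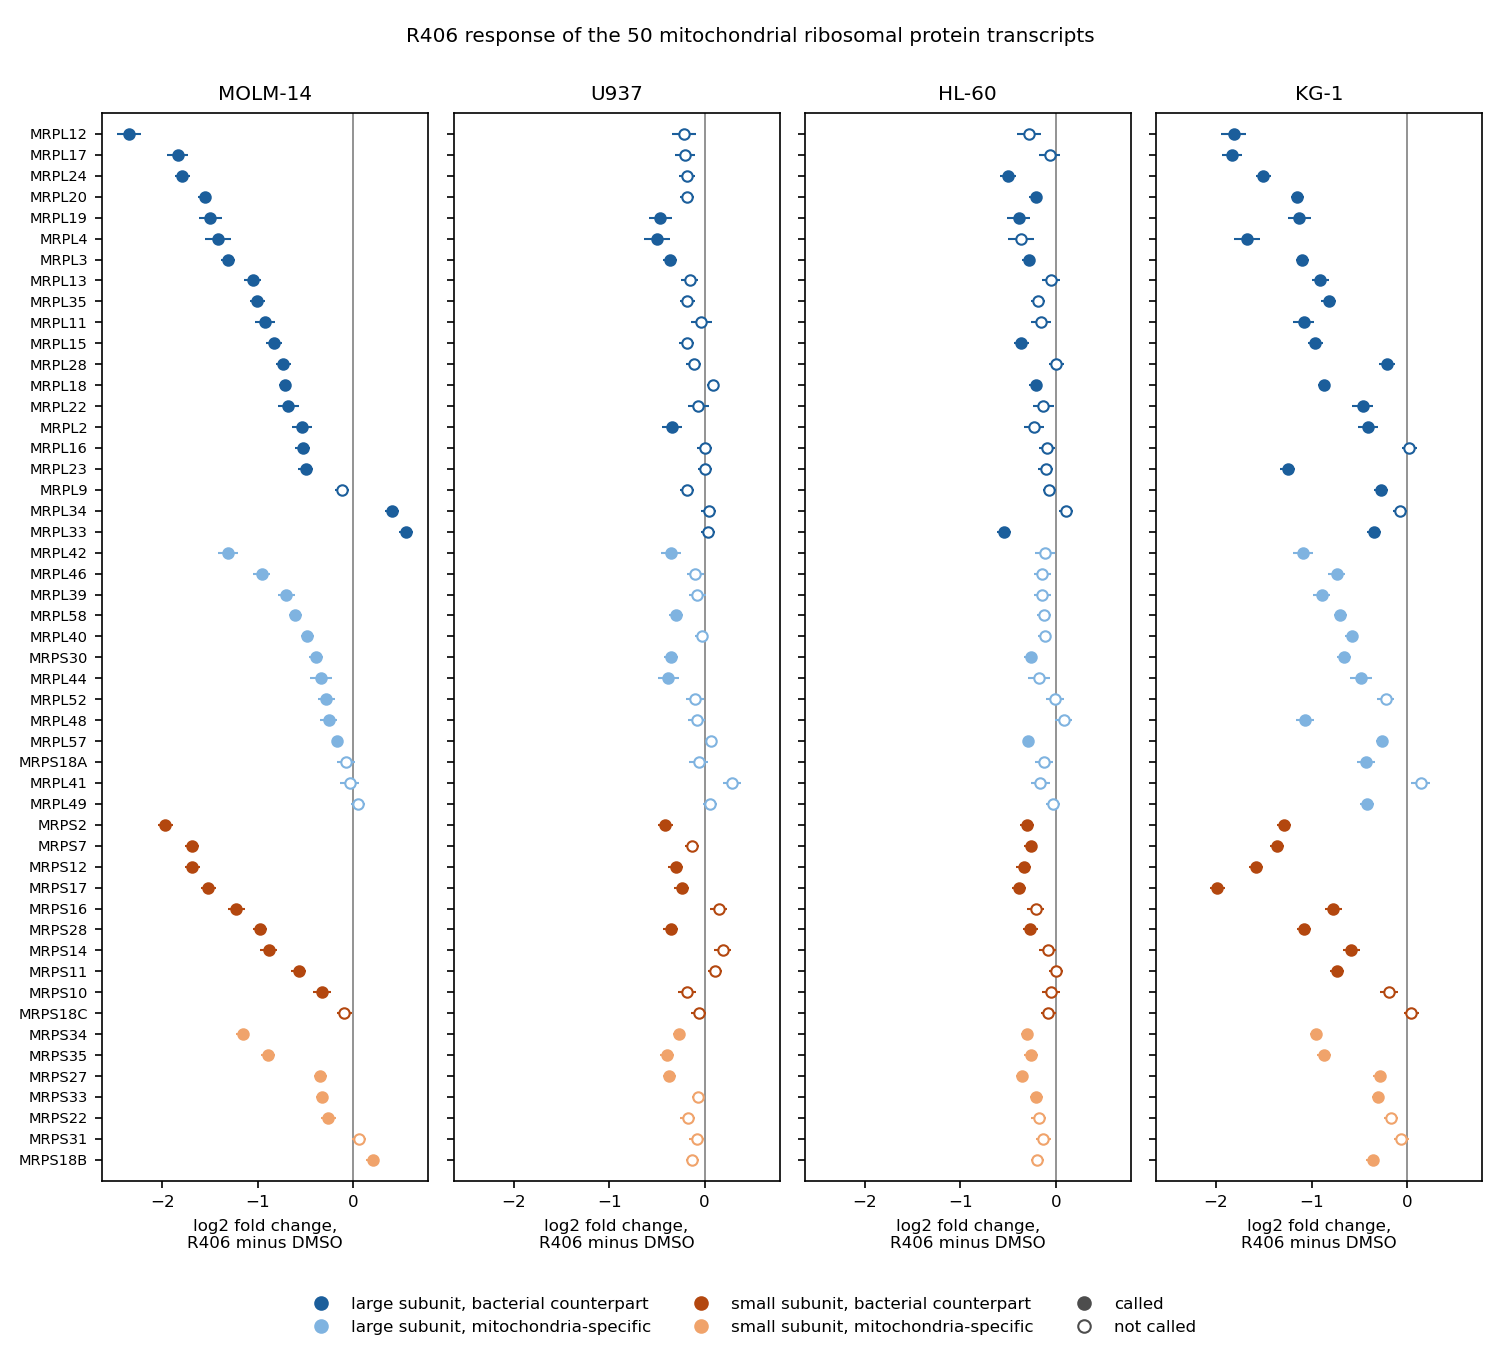
Log2 fold change (R406 minus DMSO) of the 50 mitochondrial ribosomal protein transcripts in the 4 lines, by subunit and class. Points are fitted means over 3 R406 and 3 DMSO arrays, bars are ± 1 standard error, and filled points are called; 41 points are called below 0 in MOLM-14, 15 in U937, 18 in HL-60 and 42 in KG-1.

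MRPL12 had the lowest log2 fold change in MOLM-14. It encodes bL12m, the flexible stalk of the large subunit that recruits the GTPases of translation, and it has also been described as a partner of the mitochondrial RNA polymerase. Its intensity was 97.84, 70.04 and 101.7 in MOLM-14 R406, against 415.0, 473.8 and 477.7 in MOLM-14 DMSO. In KG-1 R406 it was 124.2, 91.55 and 132.8, against 425.5, 411.5 and 383.7 in KG-1 DMSO. In neither line did any R406 array come near the DMSO arrays, and the log2 fold changes were -2.35 (SE 0.13, adjusted p = 3.02e-13) in MOLM-14 and -1.82 (SE 0.13, adjusted p = 6.32e-11) in KG-1. U937 R406 had 334.9, 388.4 and 354.9 against 424.9, 434.8 and 392.0 in U937 DMSO, and HL-60 R406 had 415.9, 399.8 and 393.1 against 517.1, 435.6 and 525.4 in HL-60 DMSO. There too the arrays did not overlap, but the differences did not pass the test (adjusted p = 0.354 and 0.156). MRPL11, at the base of the stalk, was called lower in MOLM-14 (-0.93) and KG-1 (-1.08) and was at -0.04 in U937 and -0.16 in HL-60.

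Around the peptidyl transferase centre, where amino acids are joined, MRPL3 (uL3m) was called lower in all 4 lines. It measured 1050, 960.6 and 1136 in MOLM-14 R406 against 2524, 2745 and 2539 in MOLM-14 DMSO, and 2241, 2165 and 2075 in U937 R406 against 2826, 2764 and 2746 in U937 DMSO. In HL-60 R406 it measured 2579, 2376 and 2314 against 2837, 2890 and 3136 in HL-60 DMSO, and in KG-1 R406 1368, 1290 and 1234 against 2700, 2815 and 2818 in KG-1 DMSO. The groups stayed apart in every line. The log2 fold changes were -1.31 in MOLM-14, -0.36 in U937, -0.29 in HL-60 and -1.10 in KG-1, with adjusted p at most 0.00559. MRPL2 (uL2m) was at -0.53 in MOLM-14 and -0.41 in KG-1, both called. MRPL16 (uL16m) was called in MOLM-14, at -0.53 (adjusted p = 4.23e-06), and was at 0.02 in KG-1 (adjusted p = 0.855; 0.08 without KG-1 R406 replicate 2). Its response differed between lines (adjusted p = 0.000495).

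The 4 members that line the exit tunnel for the new peptide were all called lower in both MOLM-14 and KG-1, where 16.1% of all genes were. MRPL24 (uL24m) measured 68.3, 65.3 and 70.85 in MOLM-14 R406, against 249.4, 233.2 and 231.3 in MOLM-14 DMSO. The arrays were far apart, with a log2 fold change of -1.79 (adjusted p = 1.39e-14), and MRPL24 also fell in HL-60, by 0.50 on the log2 scale (adjusted p = 0.000123). MRPL4 (uL4m) measured 286.0, 340.4 and 313.1 in U937 R406 against 455.0, 441.9 and 426.2 in U937 DMSO. Those arrays did not overlap, and its -0.50 (adjusted p = 0.0185) was the lowest value among the 50 in that line, beside -1.42 in MOLM-14 and -1.67 in KG-1. MRPL23 (uL23m) differed in depth between lines: it measured 622.8, 642.7 and 604.0 in MOLM-14 R406 against 863.4, 882.1 and 898.2 in MOLM-14 DMSO. In KG-1 R406 it measured 302.2, 248.7 and 328.6 against 735.3, 666.1 and 685.0 in KG-1 DMSO. Both lines showed separate groups, at -0.50 in MOLM-14 and -1.25 in KG-1. MRPL22 (uL22m) was at -0.68 and -0.46 in the same lines, the second being -0.28 without KG-1 R406 replicate 2.

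Among the other large-subunit proteins with a bacterial counterpart, MRPL17 (bL17m) measured 229.8, 173.1 and 187.1 in MOLM-14 R406 against 698.7, 661.9 and 744.4 in MOLM-14 DMSO. KG-1 R406 had 152.9, 113.8 and 167.3 against 542.8, 495.1 and 496.5 in KG-1 DMSO. The groups were apart in both, by -1.84 and -1.83, while MRPL17 was not called in U937 (-0.21) or HL-60 (-0.07). MRPL20 (bL20m), known in bacteria as a protein of early large-subunit assembly, measured 361.9, 323.6 and 388.6 in MOLM-14 R406 against 1073, 1043 and 1039 in MOLM-14 DMSO. No array overlapped, and the log2 fold change was -1.56 in MOLM-14 (adjusted p = 1.17e-14), -1.15 in KG-1 and -0.21 in HL-60 (adjusted p = 0.041). The HL-60 value was not called with adjustment over all probe sets (adjusted p = 0.0525). A dim second probe set of MRPL20, with a mean intensity of 8.99, was called in no line (-0.09 in both MOLM-14 and KG-1, -0.19 in HL-60). MRPL19 (bL19m), at the face that meets the small subunit, was called lower in all 4 lines, at -1.50 in MOLM-14, -0.47 in U937, -0.39 in HL-60 and -1.13 in KG-1. MRPL13, MRPL15 and MRPL35 lay between -1.05 and -0.83 in MOLM-14 and between -0.96 and -0.82 in KG-1, all called. MRPL28 (bL28m) was at -0.74 in MOLM-14 and -0.21 in KG-1 (adjusted p = 0.0359). MRPL9 (bL9m) was called in KG-1 (-0.27, adjusted p = 0.00219), without a detected difference between lines (adjusted p = 0.296). Its second probe set was also called lower in MOLM-14 (-0.24, adjusted p = 0.00249, over all probe sets) and U937 (-0.26, adjusted p = 0.00903).

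**Figure D2:**
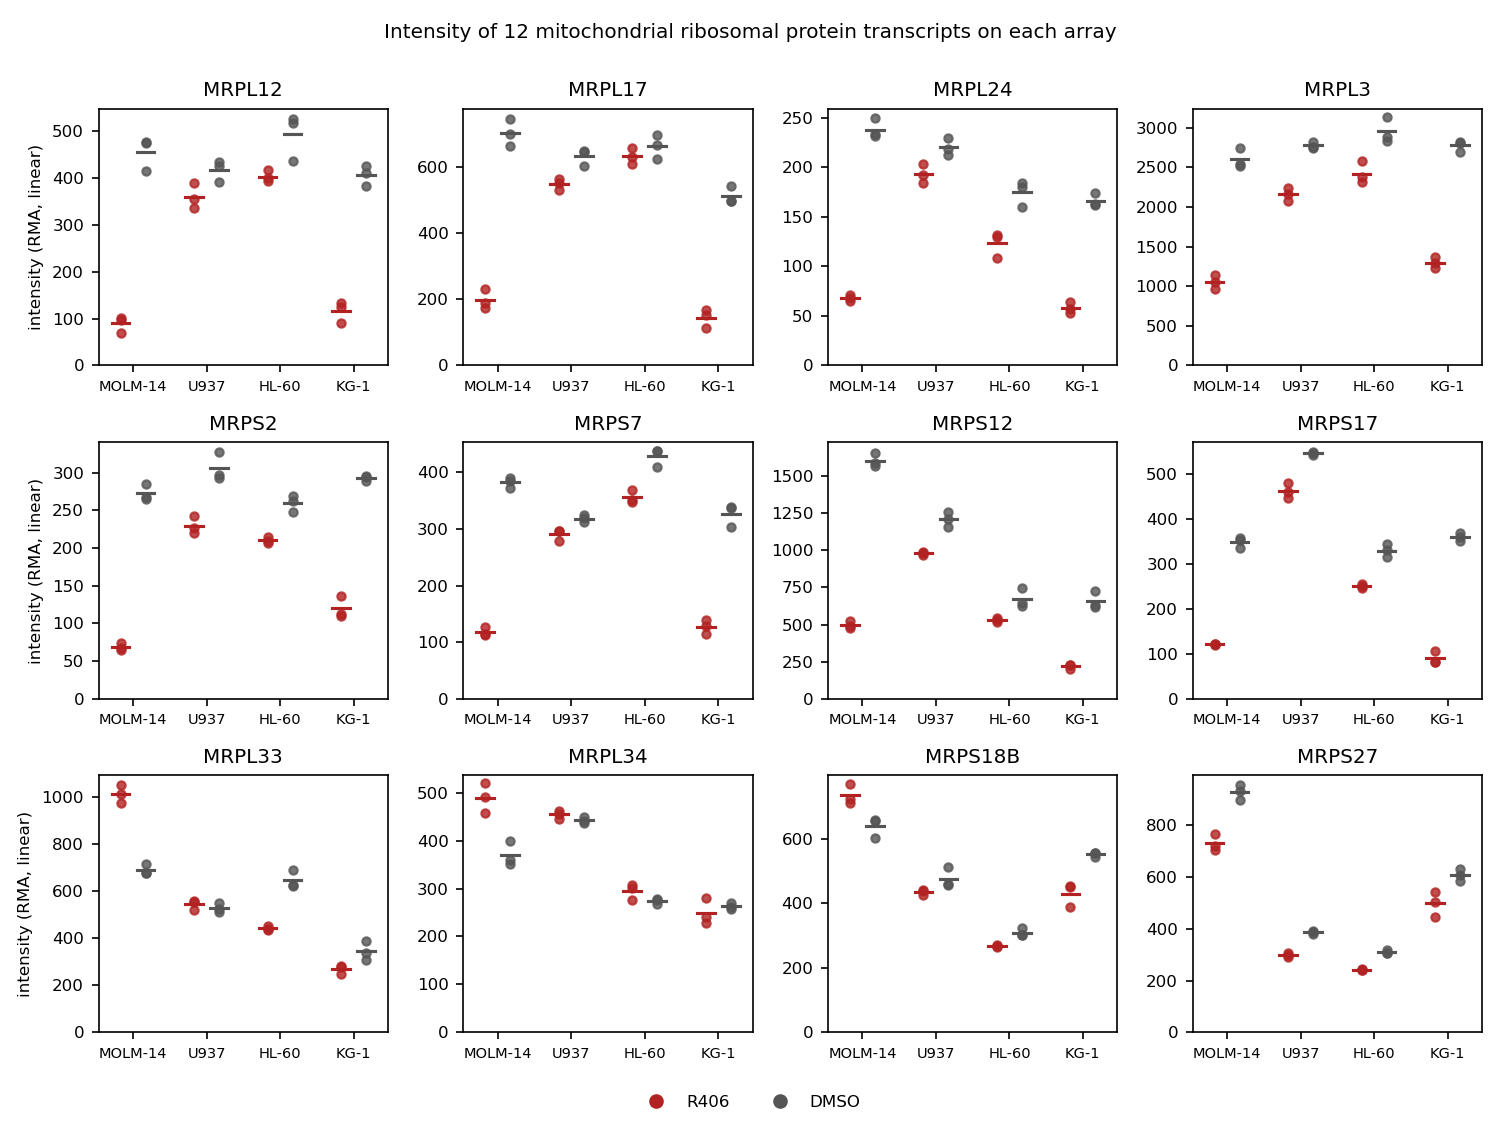
Intensity (linear RMA scale) of 12 mitochondrial ribosomal protein transcripts on each array, with R406 in red left of DMSO in grey and a line at the mean of each 3 arrays. MRPL12 lies at 70.04 to 101.7 in MOLM-14 R406 and 415.0 to 477.7 in MOLM-14 DMSO, whereas MRPL33 lies at 977.7 to 1053 in MOLM-14 R406 and 678.0 to 715.9 in MOLM-14 DMSO.

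Of the 13 large-subunit proteins without a bacterial counterpart, 10 were called lower in MOLM-14 (76.9%), 4 in U937 (30.8%), 2 in HL-60 (15.4%) and 11 in KG-1 (84.6%). Over all genes the shares called lower were 25.0%, 5.43%, 7.98% and 20.9% in the same order. MRPL42 (mL42) measured 338.7, 343.5 and 330.3 in MOLM-14 R406 against 788.1, 866.0 and 858.8 in MOLM-14 DMSO, which do not overlap. Its -1.31 in MOLM-14 was the lowest of these 13, and it was also called lower in U937 (-0.35) and KG-1 (-1.09). The central protuberance is the part of the large subunit that touches tRNA and the small subunit. All 5 members placed there were called lower in MOLM-14 and KG-1. Among these, MRPL18 has a bacterial counterpart and MRPL40, MRPL46, MRPL48 and MRPL58 do not. MRPL58 (formerly ICT1) is a peptidyl-tRNA hydrolase that frees peptides from stalled ribosomes. It measured 245.8, 251.5 and 260.5 in MOLM-14 R406 against 392.0, 379.0 and 386.5 in MOLM-14 DMSO, and 229.9, 187.3 and 216.2 in KG-1 R406 against 349.0, 313.6 and 366.2 in KG-1 DMSO. Its groups were separate in both, at -0.61 and -0.70, and in U937 at -0.30 (adjusted p = 0.00603). MRPL48 (mL48) was at -0.26 in MOLM-14 and -1.07 in KG-1. The KG-1 value came with 179.7, 132.4 and 189.3 in KG-1 R406, against 338.3, 341.7 and 363.6 in KG-1 DMSO.

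MRPS30 (mL65) and MRPS18A (mL66) sit in the large subunit in spite of their symbols and are counted there. MRPS30 measured 522.4, 477.4 and 559.8 in MOLM-14 R406 against 683.2, 662.7 and 693.1 in MOLM-14 DMSO, and was called lower in all 4 lines, at -0.39 in MOLM-14, -0.35 in U937, -0.26 in HL-60 and -0.66 in KG-1. MRPS18A was called in KG-1 (-0.43) and was at -0.07 in MOLM-14, but its second probe set gave -0.86 in MOLM-14 (adjusted p = 2.36e-08, over all probe sets). Its 2 probe sets therefore give different answers in that line. MRPL41 (mL41), the dimmest member, lay between 5.34 and 8.16 on all 24 arrays and was called in no line. MRPL57 (mL63) was at -0.17 in MOLM-14 (adjusted p = 0.00886), whereas quantile normalization of the arrays gave 0.001. MRPL57 was also called lower in HL-60 (-0.29, adjusted p = 0.000453) and KG-1 (-0.27, adjusted p = 0.00017). Its second brightest probe set was not called in MOLM-14 (0.09) or KG-1 (0.02), whereas its dimmest was called lower in both (-0.30 and -0.35). MRPL52 and MRPL49 were at -0.28 and 0.04 in MOLM-14, of which the first was called, and at -0.23 and -0.42 in KG-1, of which the second was (MRPL52 was at -0.15 there without KG-1 R406 replicate 2).

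In the small subunit, MRPS12 (uS12m) forms part of the decoding centre, where codon and tRNA are matched. It measured 479.1, 527.1 and 487.6 in MOLM-14 R406 against 1656, 1585 and 1565 in MOLM-14 DMSO, and 225.8, 201.8 and 230.4 in KG-1 R406 against 628.7, 618.0 and 729.5 in KG-1 DMSO. U937 R406 had 988.9, 983.7 and 969.4 against 1213, 1157 and 1261 in U937 DMSO, and HL-60 R406 had 515.5, 545.5 and 533.5 against 625.2, 749.0 and 646.6 in HL-60 DMSO. No line showed overlap, and MRPS12 was called lower in all 4, at -1.68 in MOLM-14, -0.30 in U937, -0.34 in HL-60 and -1.58 in KG-1. Of its 4 probe sets, 3 were called lower in MOLM-14 and the dimmest was not (-0.24, adjusted p = 0.0707 over all probe sets). In KG-1 that dimmest probe set was at 0.26 (adjusted p = 0.0609). In HL-60 only the brightest probe set was called, and the other 3 were at -0.16, 0.02 and -0.24 (adjusted p = 0.644, 0.969 and 0.2). In U937 the probe sets at -0.41 and -0.14 were not called (adjusted p = 0.115 and 0.556).

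MRPS2 (uS2m), on the back of the small subunit between head and body, measured 67.21, 74.39 and 65.08 in MOLM-14 R406 against 284.9, 267.8 and 264.6 in MOLM-14 DMSO. The groups were far apart, and its -1.97 (SE 0.08, adjusted p = 1.09e-15) was the second lowest value in MOLM-14. MRPS2 was also called in U937 (-0.41), HL-60 (-0.30) and KG-1 (-1.29). MRPS7 (uS7m), a protein that binds the ribosomal RNA of the head, measured 127.4, 113.8 and 113.0 in MOLM-14 R406 against 372.9, 384.6 and 389.9 in MOLM-14 DMSO. Those arrays did not overlap (-1.69), and MRPS7 was called in KG-1 (-1.36) and HL-60 (-0.27) but not in U937 (-0.13, adjusted p = 0.296). MRPS17 (uS17m), a protein that binds ribosomal RNA in the body, had the lowest value in KG-1. It measured 81.76, 83.18 and 107.6 in KG-1 R406 against 369.9, 351.8 and 359.8 in KG-1 DMSO, and 120.7, 121.9 and 121.2 in MOLM-14 R406 against 358.3, 335.9 and 353.1 in MOLM-14 DMSO. Both pairs of groups were separate, at -1.99 (adjusted p = 7.14e-15) in KG-1 and -1.52 in MOLM-14. U937 and HL-60 gave -0.24 (adjusted p = 0.0435) and -0.39 (adjusted p = 0.00106).

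MRPS16, MRPS28, MRPS14 and MRPS11 lay between -1.22 and -0.57 in MOLM-14 and between -1.08 and -0.59 in KG-1, all called. The dimmer probe sets of MRPS11 and MRPS14 were not called in MOLM-14, at -0.01 (adjusted p = 0.941, over all probe sets) and -0.02 (adjusted p = 0.883). MRPS14 (uS14m) is uncertain, because its 2 probe sets were called in opposite directions in KG-1, at -0.59 (adjusted p = 7.48e-06, over all probe sets) for the brighter and 0.80 (adjusted p = 1.27e-06) for the dimmer. Among the small-subunit proteins without a bacterial counterpart, MRPS34 and MRPS35 were called lower in all 4 lines, with -1.16 and -0.89 in MOLM-14 and -0.95 and -0.87 in KG-1. MRPS27 (mS27), a pentatricopeptide repeat protein that binds mitochondrial RNA, was called lower in every line. It measured 721.7, 706.1 and 766.4 in MOLM-14 R406 against 898.5, 932.5 and 957.4 in MOLM-14 DMSO, and 242.8, 244.1 and 240.3 in HL-60 R406 against 308.4, 305.2 and 317.2 in HL-60 DMSO. The groups were apart in both, and the log2 fold changes were -0.35 in MOLM-14, -0.37 in U937, -0.35 in HL-60 and -0.29 in KG-1, all called. A difference of these values between lines was not detected (adjusted p = 0.865). MRPS22 and MRPS10 were called in MOLM-14 (-0.26 and -0.33), and a difference between lines was not detected for either (adjusted p = 0.853 and 0.331). MRPS33 was called in MOLM-14, HL-60 and KG-1 (-0.33, -0.20 and -0.31) and MRPS31 in no line. The second probe set of MRPS31 was called lower in U937 (-0.30, adjusted p = 0.0368, over all probe sets).

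Only 3 members were called higher in any line, all in MOLM-14. MRPL33 (bL33m), a small protein near the site where tRNA leaves, measured 1053, 977.7 and 1015 in MOLM-14 R406 against 678.0, 679.2 and 715.9 in MOLM-14 DMSO. In HL-60 R406 it measured 433.8, 454.3 and 441.8 against 628.0, 689.9 and 624.9 in HL-60 DMSO. Both pairs were separate and opposite: 0.55 in MOLM-14 (adjusted p = 8.57e-07) and -0.54 in HL-60 (adjusted p = 1.63e-05), with -0.35 in KG-1 (adjusted p = 0.00043) and 0.04 in U937. The -0.54 was the lowest value among the 50 in HL-60. MRPL34 (bL34m), a very small basic protein, measured 521.0, 456.6 and 491.4 in MOLM-14 R406 against 359.9, 351.0 and 398.1 in MOLM-14 DMSO, with no overlap (0.40, adjusted p = 5.31e-05). It was not called in the other lines, at 0.04 in U937, 0.11 in HL-60 and -0.08 in KG-1 (-0.17 without KG-1 R406 replicate 2).

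MRPS18B belongs to a family of 3 proteins related to bacterial S18, which are found at different places in the mitochondrial ribosome. It measured 711.4, 724.2 and 770.8 in MOLM-14 R406 against 656.2, 601.7 and 658.7 in MOLM-14 DMSO, and 452.5, 388.8 and 449.5 in KG-1 R406 against 557.0, 542.6 and 555.3 in KG-1 DMSO. The groups did not overlap, and the calls ran opposite ways, at 0.20 (adjusted p = 0.0133) in MOLM-14 and -0.36 (adjusted p = 9.91e-05) in KG-1. MRPS18C, the closest counterpart of bacterial S18, lay at means of 14.88 to 19.89 and was called nowhere. The test of a difference between lines passed for MRPS18B (adjusted p = 0.00021) and not for MRPS18A (0.0686) or MRPS18C (0.653).

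Both subunits had most of their members called lower in MOLM-14 and KG-1. In MOLM-14, 27 of 33 large-subunit and 14 of 17 small-subunit transcripts were called lower (25.0% of all genes), with medians of -0.68 and -0.89. KG-1 had 29 and 13 (20.9% of all genes), with medians of -0.74 and -0.73. U937 had 8 and 7 (5.43%), with medians of -0.12 and -0.18, and HL-60 had 9 and 9 (7.98%), with medians of -0.14 and -0.21. Which subunit had the lower median in MOLM-14 depended on a few genes. With MRPS30 and MRPS18A counted by their symbols instead, the medians were -0.70 for the 31 MRPL genes and -0.57 for the 19 MRPS genes, and the order was also the reverse with the mean of all probe sets of a gene. No test was made of a difference between subunits.

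Proteins with and without a bacterial counterpart are set side by side here as a description, with no test. In MOLM-14 the 30 transcripts with a counterpart had a median of -0.95 and the 20 without one -0.33. KG-1 showed -0.93 and -0.45, U937 -0.18 and -0.10, and HL-60 -0.21 and -0.15. In U937 the share called lower ran the other way, 26.7% with a counterpart and 35.0% without. Within the subunits the MOLM-14 medians were -0.88 against -0.34 in the large and -1.10 against -0.33 in the small, while in the small subunit in U937 they were -0.16 against -0.18. Of the 16 members that fell at least 2-fold in MOLM-14, 14 had a bacterial counterpart, and the other 2 were MRPL42 and MRPS34. KG-1 had the same split of 14 and 2. Of the 3 members called higher in MOLM-14, MRPL33 and MRPL34 have a counterpart and MRPS18B was classed without one.

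**Figure D3:**
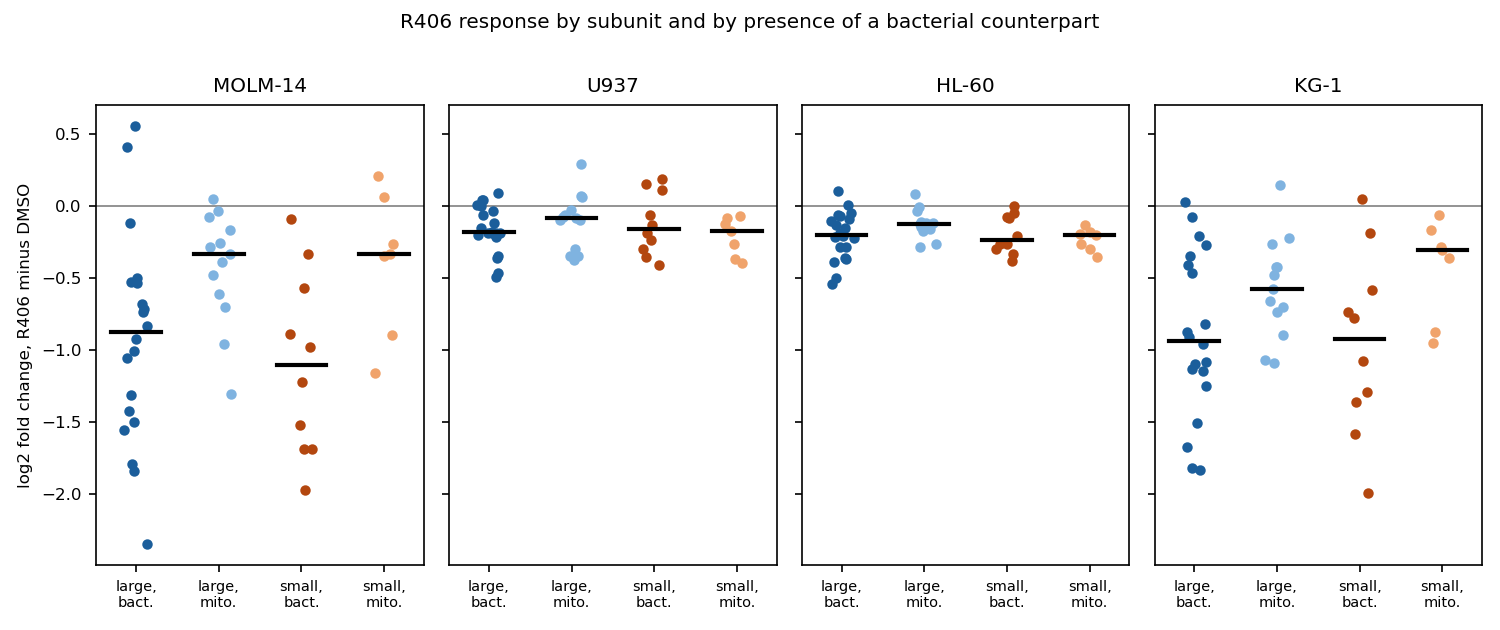
Log2 fold change (R406 minus DMSO) of the 50 transcripts by subunit (large, small) and by class (bact., bacterial counterpart; mito., mitochondria-specific) in each line. Each point is a gene and each bar the median of its class, which in MOLM-14 is -0.88 and -1.10 for the large and small subunit with a counterpart and -0.34 and -0.33 without one.

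Across lines, 10 members were called lower in all 4: MRPL3, MRPL19, MRPS2, MRPS12, MRPS17, MRPS27, MRPS28, MRPS30, MRPS34 and MRPS35. Over all genes 1.79% were called lower in all 4 lines. Of these 10, 3 belong to the large subunit and 7 to the small. The call of MRPS12 in HL-60 rested on its brightest probe set alone. A further 12 were called lower in 3 lines, 16 in 2 and 8 in 1, and MRPL34, MRPL41, MRPS18C and MRPS31 in none. Shares of all genes were not counted for these other classes. With the 4 lines averaged at equal weight, 45 members were called lower, where 23.9% of all genes were, and 1 was called higher, where 29.1% were. The median of that mean was -0.42, beside 0.03 over all genes. Among members with 1 sign in all lines, the lowest means were MRPL12 (-1.17), MRPS17 (-1.03), MRPL24 (-1.0) and MRPS2 (-0.99).

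MOLM-14 and KG-1 had most of their falls in common: 37 members were called lower in both, which is 90.2% of those in MOLM-14 and 88.1% of those in KG-1, where 16.1% of all genes were called lower in both. Across the 50 genes the log2 fold changes of these lines correlated with Pearson's r = 0.84 (Spearman's rho = 0.84), beside r = 0.69 over all genes. The other 5 pairs of lines gave r between 0.38 and 0.44 over the 50. Genes are not independent replicates, and within a line all 50 values come from the same 6 arrays, so these correlations are a description.

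**Figure D4:**
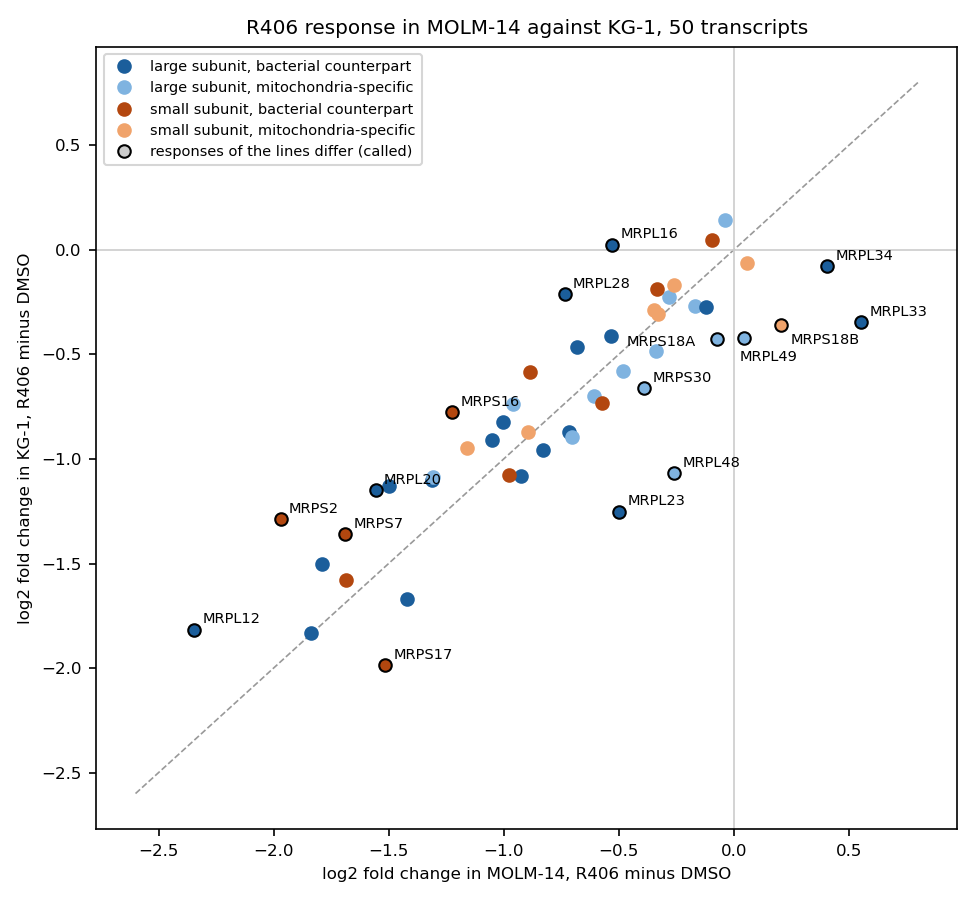
Log2 fold change (R406 minus DMSO) of the 50 transcripts in MOLM-14 (horizontal) against KG-1 (vertical). The dashed line marks equal values; black rims and names mark the 16 transcripts whose responses differed between these lines in limma, 7 lower and 9 higher in MOLM-14.

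The response differed between the 4 lines for 39 of 50 members by limma's moderated F test, where 54.8% of all genes differed. The smallest adjusted p values belonged to MRPS17 (5.37e-12), MRPS7 (6.71e-12), MRPS2 (2.12e-11), MRPS12 (3.80e-11), MRPL20 (4.31e-11) and MRPL24 (7.40e-11). MRPL33 (3.14e-08) and MRPS18B (0.00021), called higher in one line and lower in another, differed as well. The response in MOLM-14 was below the mean of the other 3 lines for 30 members, where 22.3% of all genes were, and above it for MRPL33, MRPL34 and MRPS18B, where 23.6% of all genes were. Set against KG-1 alone, a comparison added after the values were seen, MOLM-14 responded lower for 7 members and higher for 9. Over all genes 17.9% and 15.6% did, so both shares of the 50 lay near the array-wide ones. The 7 were MRPL12, MRPL16, MRPL20, MRPL28, MRPS2, MRPS7 and MRPS16, and the 9 MRPL23, MRPL33, MRPL34, MRPL48, MRPL49, MRPS17, MRPS18A, MRPS18B and MRPS30. Without KG-1 R406 replicate 2 the counts were 13 and 7, with MRPS18A and MRPS30 no longer among the higher ones. The differences of log2 fold change (MOLM-14 minus KG-1) ran between -0.68 for MRPS2 and 0.90 for MRPL33.

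In DMSO cells the lines already differed in these transcripts. By limma's F test 47 of 50 differed between the DMSO groups, where 68.1% of all genes did, and MRPL3, MRPL12 and MRPL41 were the exceptions (adjusted p = 0.14, 0.21 and 0.0509). Of the 47, the level was highest in MOLM-14 for 20, in U937 for 10, in HL-60 for 8 and in KG-1 for 9, and lowest in KG-1 for 21 and in HL-60 for 16. MRPS30 had the widest range of group means, 1.63 on the log2 scale: 683.2, 662.7 and 693.1 in MOLM-14 DMSO, 408.1, 377.1 and 368.7 in U937 DMSO, 359.0, 378.9 and 331.0 in HL-60 DMSO, and 210.2, 230.2 and 215.6 in KG-1 DMSO. Only U937 and HL-60 overlapped in that order. MRPS28 (bS1m) ranged over 1.61 and was highest in KG-1 DMSO (1054, 1090 and 1059) and lowest in HL-60 DMSO (338.9, 347.1 and 361.9), with all 4 lines separate. MRPS27 ranged over 1.58, being highest in MOLM-14 and lowest in HL-60, also with all lines separate. MRPS33 (1.35) was highest in HL-60 and lowest in KG-1, MRPL13 (1.34) highest in KG-1 and lowest in HL-60, and MRPS12 (1.28) highest in MOLM-14, with HL-60 and KG-1 overlapping at the low end.

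**Figure D5:**
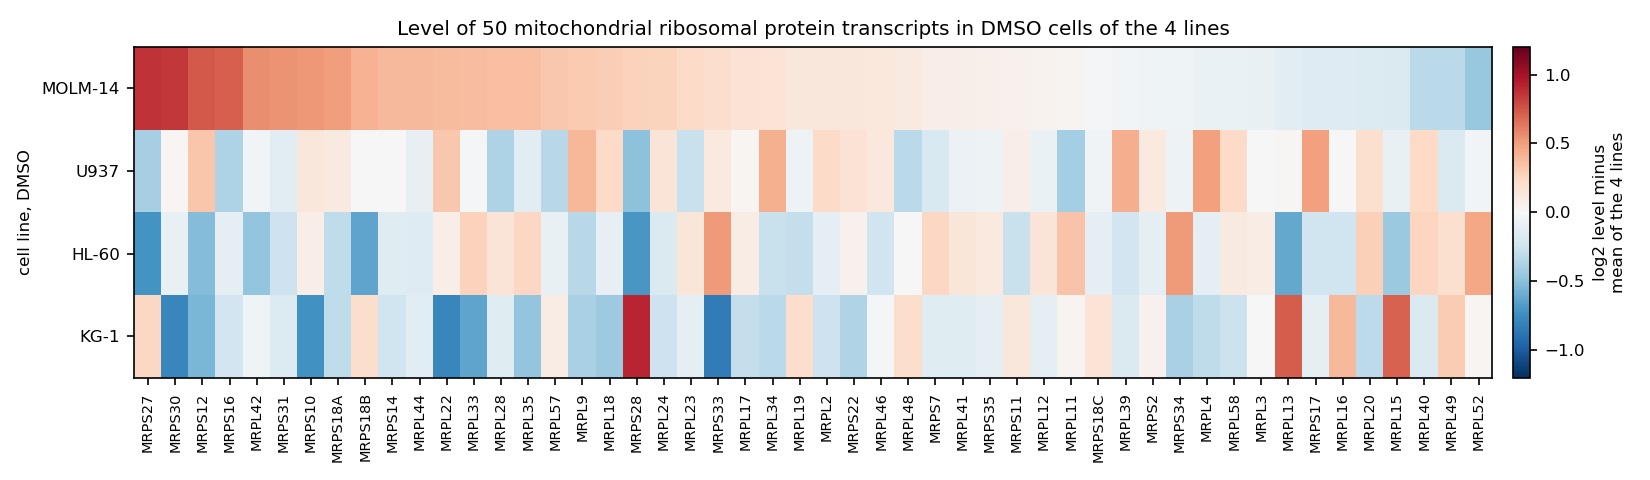
Level of the 50 transcripts in DMSO cells, as the log2 mean of 3 arrays minus the mean of the 4 lines for that gene (colour scale), with lines in rows and genes ordered by MOLM-14. Colours compare lines within a gene and not genes with each other; MRPS27 is highest in MOLM-14, and MRPS28 and MRPL13 are highest in KG-1.

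The promoters of these genes were read in RefSeq windows of build GRCh38.p14, each with 250 bases before and 50 bases after the annotated start. A window was listed for 44 of the 50 members, and not for MRPL2, MRPL13, MRPL15, MRPL23, MRPL35 and MRPS28. Of 6 motifs searched on both strands, AAGATGGC, the core bound by the factor YY1, stood out in count: 12 of 44 member windows held it (27.3%), against 2.89% of all 35116 windows and 4.74% of the 9711 windows of genes tested. Windows of oxidative phosphorylation subunits held it in 17.5%, of cytosolic ribosomal proteins in 9.43% and of mitochondrial import genes in 4.55%. The ETS motif ACTTCCGG was in 6 member windows (13.6%, against 6.55% of tested genes). The E-box CACGTG, bound by MYC and related factors, was in 3 (6.82%, against 9.43%). The NRF1 palindrome was in 1 (2.27%, against 1.91%), CCAAT in 11 (25.0%, against 37.4%) and GGGCGG, the SP1 motif, in 26 (59.1%, against 62.9%). A match shows only that the letters are there.

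The 13 occurrences of AAGATGGC are printed with up to 10 bases on each side to show how alike they are, 5′ to 3′ on the gene's strand, with the motif in capitals. All but the one in MRPS12 read along the gene's own strand, and 10 start at or after the annotated start. Over all 13 the median start is base 10.
MRPL20 (chr1:1407261-1407288, minus strand): cgacccgggcAAGATGGCagcggcgctg
MRPL22 (chr5:154941098-154941122, plus strand): gggagggcgaAAGATGGCggcggca
MRPL42 (chr12:93467512-93467539, plus strand): ggattgaaacAAGATGGCgggttcgtgg
MRPL46 (chr15:88467363-88467390, minus strand): gggagaacgaAAGATGGCggcgcccgta
MRPL52 (chr14:22829779-22829806, plus strand): acgatgacccAAGATGGCggagccgtga
MRPL52 (chr14:22829813-22829840, plus strand): acccagattcAAGATGGCgacttcctgc
MRPS7 (chr17:75261888-75261915, plus strand): gtggccagccAAGATGGCtgcccccgca
MRPS10 (chr6:42217835-42217862, minus strand): cgggaccggcAAGATGGCggcgcggaca
MRPS12 (chr19:38930722-38930749, plus strand): catggacgcaGCCATCTTggaccgggaa
MRPS18A (chr6:43687765-43687792, minus strand): taggtttttgAAGATGGCggccctcaag
MRPS18B (chr6:30617853-30617880, plus strand): ggcgtacgtcAAGATGGCggcgtctgta
MRPS27 (chr5:72320207-72320234, minus strand): ggtacgctccAAGATGGCtgcctccata
MRPS30 (chr5:44808950-44808977, plus strand): atcgcgggcaAAGATGGCggcggccagg
In MOLM-14 these 12 genes had MRPS7 (-1.69), MRPS12 (-1.68) and MRPL20 (-1.56) at the low end and MRPS18B (0.20) at the high end. All 50 members ran between -2.35 and 0.55 there. In MOLM-14 their median log2 fold change was -0.54, and in KG-1 -0.56, beside -0.66 and -0.72 for the 32 members whose window lacks the motif.

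The windows of MRPL12 and MRPL17, which fell most in the large subunit, are shown whole because they differ in these motifs. That of MRPL12 (chr17:81703117-81703416, plus strand) holds none of the 6, and that of MRPL17 (chr11:6683291-6683590, minus strand) holds 3 SP1 motifs and the only NRF1 palindrome among the members, in capitals.
MRPL12: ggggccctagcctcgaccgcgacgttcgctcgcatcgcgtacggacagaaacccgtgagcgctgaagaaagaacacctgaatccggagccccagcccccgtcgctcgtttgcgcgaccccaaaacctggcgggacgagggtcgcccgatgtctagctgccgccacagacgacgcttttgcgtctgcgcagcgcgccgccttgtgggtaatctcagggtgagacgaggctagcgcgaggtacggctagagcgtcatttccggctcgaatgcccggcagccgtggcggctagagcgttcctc
MRPL17: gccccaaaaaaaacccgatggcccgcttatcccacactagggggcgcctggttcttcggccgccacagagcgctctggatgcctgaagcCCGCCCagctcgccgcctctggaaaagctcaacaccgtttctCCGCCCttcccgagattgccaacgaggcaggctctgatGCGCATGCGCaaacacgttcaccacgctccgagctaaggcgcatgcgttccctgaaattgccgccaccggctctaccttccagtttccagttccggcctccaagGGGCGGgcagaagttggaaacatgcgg

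Genes that work with the mitochondrial ribosome were counted from lists chosen by function, beside the shares of all genes called lower and higher: 25.0% and 31.1% in MOLM-14, 5.43% and 6.10% in U937, 7.98% and 7.20% in HL-60, and 20.9% and 23.5% in KG-1. Of the subunits that the symbols do not capture, 3 were measured, DAP3, GADD45GIP1 and PTCD3, and all were called lower in MOLM-14 (-0.27, -0.96 and -0.54) and in KG-1 (-0.40, -1.07 and -0.58). Of 13 measured translation factors, 7 were called lower (53.8%) and 3 higher (23.1%) in MOLM-14, and 7 (53.8%) and 2 (15.4%) in KG-1. TUFM, the elongation factor that brings tRNA to the ribosome, was at -0.89 in MOLM-14 and -0.91 in KG-1, and its exchange factor TSFM at -1.19 and -1.28. OXA1L, the insertase to which the ribosome hands its products, was called higher in MOLM-14 (0.30) and in KG-1 (0.37). Of 21 assembly factors, MOLM-14 had 15 called lower (71.4%) and 4 higher (19.0%), and KG-1 had 15 (71.4%) and 2 (9.52%). The lowest in MOLM-14 was RBFA (-1.84), a maturation factor of the small subunit, and the highest LETMD1 (1.29).

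The ribosome's RNA depends on mitochondrial DNA, and its proteins on the import machinery. Of 9 genes of mitochondrial DNA replication and transcription, 5 were called lower in MOLM-14, 4 in U937, 3 in HL-60 and 7 in KG-1, and 0 higher in any line. Among them TWNK, the mitochondrial helicase, was at -2.43 in MOLM-14 and -1.29 in KG-1, and TFAM, which packages mitochondrial DNA, at -1.46 and -1.29. Of 24 import genes, 21 were called lower and 2 higher in MOLM-14 (median -1.10) and 19 and 1 in KG-1 (median -0.94), with 10 lower in U937 and 10 in HL-60. TIMM8A, a chaperone of the intermembrane space, was lowest in MOLM-14 (-3.10). Of 69 nuclear subunits of oxidative phosphorylation, the complexes that hold the products of the mitochondrial ribosome, 44 were called lower and 14 higher in MOLM-14 and 49 and 4 in KG-1, with medians of -0.38 and -0.41. In U937 that list had 0 lower and 3 higher calls (median 0.01), and in HL-60 6 lower (8.70%, near the 7.98% of all genes) and 0 higher (median -0.07). Of the 63 cytosolic ribosomal proteins measured, 0 were called lower and 24 higher (38.1%) in MOLM-14, 0 lower and 16 higher in KG-1 (25.4%, near the 23.5% of all genes), and 1 in all in U937 and HL-60 together.

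A measure of transcript integrity moved with treatment beside these results. The log2 ratio of the 3′ to the 5′ control probe set of ACTB was 0.834, 0.817 and 0.821 in MOLM-14 R406, against 0.516, 0.466 and 0.469 in MOLM-14 DMSO. In KG-1 R406 it was 0.793, 0.967 and 0.795, against 0.687, 0.764 and 0.734 in KG-1 DMSO, with the highest value in replicate 2. The groups did not overlap in either line. In HL-60 it ran the other way, at 0.741, 0.717 and 0.778 in HL-60 R406 against 0.910, 0.808 and 0.905 in HL-60 DMSO, and in U937 the groups overlapped (means of 0.452 in R406 and 0.491 in DMSO). The same ratio of GAPDH was -0.168, -0.104 and -0.161 in MOLM-14 R406 against -0.232, -0.243 and -0.191 in MOLM-14 DMSO. In KG-1 R406 it was -0.067, -0.039 and -0.088 against -0.103, -0.175 and -0.220 in KG-1 DMSO, again without overlap. Its means were -0.171 in U937 R406 against -0.165 in U937 DMSO, and 0.115 in HL-60 R406 against 0.126 in HL-60 DMSO, with overlap in both. The part of this shift in the falls was not tested.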

How the data were processed

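RNA of 24 samples was measured on 1-colour arrays. The deposited values are RMA intensities on a linear scale, per the submitters' processing notes and the labels, and were used as log2(intensity + 1) with no further normalization. From the 22277 probe sets on the array, 62 controls, 1923 without a listed gene and 568 that list more than one were left out, and the probe set with the highest mean stood for each of 12165 genes. Of the 50 members, 9 have more than one probe set, 31 are represented by one that can also bind related transcripts, and 3 probe sets shared with another symbol were left out. One limma model (3.58.1, R 4.3.3) with 8 group means gave each contrast and F test, with 16 residual and 5.47 prior degrees of freedom and Benjamini-Hochberg adjustment over all genes. The procedure was tested on simulated data. The number of arrays limits the precision.

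The members and lists were chosen with earlier results of these data known. Genes were named by rank of log2 fold change among those called in each line, by the smallest p for a difference between lines, by the range of DMSO means, by opposite calls, and from a short list of functions; others were named after their values were seen. The contrast of MOLM-14 with KG-1, the windows around AAGATGGC and the motif shares by gene list were also chosen after values were seen. Alternatives were quantile normalization, median centring, another pseudocount, other choices of probe set, a filter on dim genes, limma-trend, array weights, separate fits, a replicate block and leaving out each array.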

Additional observations from a re-analysis of the deposited data

Results flagged for a closer look

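These results stand out because the effect of R406 differed between cell lines in a test of the difference itself, by limma with Benjamini-Hochberg adjustment over all genes. The difference between the 4 lines passed for 39 of the 50 mitochondrial ribosomal protein transcripts, where 54.8% of all genes passed. The response in MOLM-14 was below the mean of the other 3 lines for 30 and above it for 3, where 22.3% and 23.6% of all genes were. Set against KG-1 alone, it was lower for 7 of the 50 and higher for 9, shares near the 17.9% and 15.6% of all genes. Those counts against KG-1 therefore do not stand out from the array as a whole. Single members with a difference between lines were MRPS17 (adjusted p = 5.37e-12), MRPS7 (6.71e-12), MRPS2 (2.12e-11), MRPS12 (3.80e-11), MRPL20 (4.31e-11) and MRPL24 (7.40e-11). MRPL33 (3.14e-08) and MRPS18B (0.00021) were called higher in MOLM-14 and lower in another line.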

How the results depend on the processing

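Arrays number 3 a group and 31 of 50 members rest on probe sets that can bind related transcripts. Of 312 counts and medians under other settings 265 moved little and 47 moved by more than the limit set, and of 672 with an array left out 17 did; for single members, 8 values reversed, 97 lost and 58 gained a call, and 5832 kept both. The causes were not tested, apart from the smaller number of members where probe sets are left out. With the probe sets that can bind related transcripts left out, 23 members remained: 17 were called lower and 1 higher in MOLM-14, 9 and 1 in U937, 20 lower and 1 higher in KG-1, and 18 lower in the mean of lines. MOLM-14 was then below the other lines for 14, and below KG-1 for 4 and above it for 4, with 19 differing between lines and 21 between DMSO groups. The medians were -0.609 (large) and -0.620 (small) in MOLM-14, a difference of 0.011, -0.084 (large) in U937 with a difference of 0.118, and -0.213 (large) and -0.264 (small) in HL-60. Members called higher in U937 numbered 1 with quantile normalization, the mean of all probe sets, the lowest-mean probe set and limma-trend, and 2 with array weights. The lowest-mean probe set gave 1 called higher in KG-1 and 2 in the mean of lines, and quantile normalization gave 5 above the other lines in MOLM-14.

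Medians under quantile normalization were -0.559 (large) and -0.779 (small) in MOLM-14. With the mean of all probe sets the small subunit was at -0.455 in MOLM-14, large minus small was -0.226 in MOLM-14, 0.087 in U937 and -0.122 in KG-1, and the large subunit was at -0.100 in U937. With the lowest-mean probe set the small subunit was at -0.333 in MOLM-14 and -0.408 in KG-1, the difference -0.347 and -0.292, and the large subunit -0.100 in U937. By symbol the small subunit was at -0.573 in MOLM-14, and the difference was -0.131 there and -0.163 in KG-1. The large subunit in U937 was at -0.151 with median centring (small -0.211), -0.136 without the dimmest genes, -0.106 with a pseudocount of 16 and -0.126 with array weights.

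Reversed values were MRPL57 in MOLM-14 with quantile normalization (0.001), MRPS12 in KG-1 with the lowest-mean probe set (0.264), and MRPS14, at 0.105 in KG-1 and 0.003 in the mean of lines with the mean of all probe sets, and 0.795 and 0.348 with the lowest-mean probe set and without the probe sets that can bind related transcripts. Leaving out each array in turn, members called lower ranged over 40 to 41 in MOLM-14, 9 to 16 in U937, 12 to 19 in HL-60 and 41 to 43 in KG-1, and those called higher in U937 over 0 to 1. MOLM-14 was below KG-1 for 6 to 13 members, with 13 without KG-1 R406 replicate 2. The large-subunit median ranged over -0.681 to -0.63 in MOLM-14, -0.146 to -0.116 in U937 and -0.185 to -0.131 in HL-60, the small-subunit median over -0.18 to -0.148 in U937 and -0.242 to -0.197 in HL-60, and the difference in U937 over 0.028 to 0.061. In the labels, R406 and DMSO samples of a line share only a replicate number. Deviations of same-numbered arrays correlated between -0.084 and 0.071, which cannot show whether those samples were paired. With that number as a block, the counts called lower were 41 in MOLM-14, 11 in U937, 12 in HL-60 and 42 in KG-1, which moved the HL-60 count most.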
